A study of Mus musculus with 3 samples.

Results

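Sarcomere genes of striated muscle were examined for binding of Foxf2, a forkhead transcription factor, in the embryonic mouse tongue. The set held 39 protein-coding genes, all for proteins of the contractile unit except Casq1, which encodes a calcium store protein. They were chosen by name, and the choice was made with earlier results of these data known, although the rule itself uses no measured value. A peak was given to a gene when the transcription start site (TSS) nearest to the peak midpoint, among those of all protein-coding genes, belonged to that gene. By this rule 37 of 25704 peaks fell to 15 of the 39 members, and 24 members had none.

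The study profiled chromatin with an antibody against FLAG (ChIP-seq) in tongues of Foxf2FLAG/FLAG embryos at E12.5, in which CRISPR/Cas9 editing placed a 3xFLAG tag on the endogenous Foxf2 protein. It had 2 FLAG ChIP libraries and 1 library of input chromatin, both from embryos of that same genotype, and no FLAG ChIP from untagged tissue. The labels give 75 dissected tongues for each sample, and do not say if that is a total, so the tissue was pooled over embryos. The values were 1 list of peaks in the mm10 build, with the caller's score and focus ratio for each. None of its columns belonged to a single library, so the depth was unknown, agreement between the ChIP libraries was not measured, and no comparison across samples could be tested. Counts and shares below describe this list, and their exact (Clopper-Pearson) 95% intervals cover counting of peaks or genes only.

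The sarcomere is the repeating contractile unit of skeletal and cardiac muscle. Thick filaments of myosin pull on thin filaments of actin, tropomyosin and troponin, which are anchored at the Z-disc, while titin spans from the Z-disc to the M-band. In the tongue the muscle cells descend from the occipital somites, and the connective tissue around them comes from cranial neural crest. Foxf2 is known as a factor of the mesenchyme. Whole tongues hold all of these cells, so a peak cannot be placed in one cell type. The tissue label could not be checked against expressed markers, since only binding was measured.

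The peaks with the highest scores and those at promoters are shown as sequence. Each window is the 200 bp around a peak midpoint on the plus strand of mm10. Capitals mark the forkhead core, which is the word GTAAACA, its close relative GTAAATA, or either of the forms written ATAAACA and otherwise ATAAATA, on both strands. The 5 highest-scored peaks of the set were the following.
Tpm1, 66.7 kb upstream of its TSS, score 44.6, chr9:67116041-67116240: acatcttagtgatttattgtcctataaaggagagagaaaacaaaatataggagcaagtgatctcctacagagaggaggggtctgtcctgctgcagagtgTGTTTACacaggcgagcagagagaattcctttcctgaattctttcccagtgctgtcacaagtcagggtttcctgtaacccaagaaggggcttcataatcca
Nebl, 130.1 kb upstream, score 40.9, chr2:17861028-17861227: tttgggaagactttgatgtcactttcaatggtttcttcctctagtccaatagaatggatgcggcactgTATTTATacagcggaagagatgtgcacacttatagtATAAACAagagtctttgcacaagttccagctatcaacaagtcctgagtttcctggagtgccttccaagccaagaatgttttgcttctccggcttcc
Tpm1, 22.1 kb upstream, score 35.1, chr9:67071420-67071619: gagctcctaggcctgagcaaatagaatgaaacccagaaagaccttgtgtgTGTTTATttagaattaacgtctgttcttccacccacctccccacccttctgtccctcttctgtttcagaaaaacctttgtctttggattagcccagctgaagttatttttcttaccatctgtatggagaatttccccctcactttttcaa
Nebl, 57.1 kb upstream, score 27.8, chr2:17788066-17788265: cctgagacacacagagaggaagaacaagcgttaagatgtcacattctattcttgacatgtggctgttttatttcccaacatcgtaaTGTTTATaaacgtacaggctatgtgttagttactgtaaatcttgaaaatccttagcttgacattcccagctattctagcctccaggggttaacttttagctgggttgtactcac
Myom2, 370.9 kb downstream, score 27.6, chr8:15428458-15428657: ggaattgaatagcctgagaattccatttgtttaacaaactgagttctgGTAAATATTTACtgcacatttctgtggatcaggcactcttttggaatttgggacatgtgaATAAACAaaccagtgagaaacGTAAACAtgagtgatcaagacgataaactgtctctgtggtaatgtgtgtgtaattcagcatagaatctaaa
Each of these 5 windows held at least 1 core, and the Myom2 window held 4, of which 1 pair overlapped. The 2 peaks that lay in a promoter, reaching from 1000 bp before a TSS to 100 bp past it, had low scores and no core in their windows.
Myl3, 83 bp upstream of an internal TSS, score 11.4, chr9:110765974-110766173: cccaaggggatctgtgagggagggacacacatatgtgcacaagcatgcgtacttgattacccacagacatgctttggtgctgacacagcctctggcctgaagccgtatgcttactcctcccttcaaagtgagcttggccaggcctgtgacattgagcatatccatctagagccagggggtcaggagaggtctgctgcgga
Tnni3, 4.10 kb upstream, score 10.5, chr7:4526527-4526726: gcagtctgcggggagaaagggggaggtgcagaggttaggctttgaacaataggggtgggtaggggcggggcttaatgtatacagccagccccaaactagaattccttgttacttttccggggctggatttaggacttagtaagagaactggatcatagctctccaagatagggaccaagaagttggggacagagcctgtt
The Tnni3 window lay at a start of the antisense gene Gm15873 inside Dnaaf3, not at the Tnni3 promoter itself. The windows shown are picked examples, and low-scored peaks did not in general lack the core. Of all 37 member peaks, 30 held it. The lowest-scored, a Ttn peak of 10.1, held 2 cores, while a Myl4 peak of 22.1 held none.

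Members had peaks about as often as other genes, and most that had one had a single, low-scored peak. At least 1 peak was found at 15 of 39 members, 38.5% (interval 23.4 to 55.4), against 37.3% of all 21938 protein-coding genes. Within 10 kb of a TSS, 8 members had a peak, 20.5% (interval 9.30 to 36.5), against 19.4% of all genes. Of the 15 members, 9 had exactly 1 peak, 60% against 46.5% of all genes with a peak, and 4 had exactly 2, while Tpm1 had 7 and Nebl 13. These last 2 genes held 20 of the 37 peaks, 54.1%.

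Territory length, the number of bases whose nearest protein-coding TSS belongs to the gene, set the room for peaks. Members had a median territory of 38.7 kb, from 5.52 kb at Tnnc1 to 1245 kb at Myom2, against a median of 47.0 kb over all genes. In the whole annotation the share of genes with a peak was 8.16% in the shortest decile of territory and 81.5% in the longest. Over broad groups of deciles members followed the same order. Decile by decile they did not, as 60% of members in decile 4 had a peak and 14.3% in decile 5. Of the 26 members in deciles 1 to 5, 6 had a peak, where 16.3% of all genes did. Of the 8 in deciles 6 to 8, 4 had one, against 45.6% of all genes. All 5 in deciles 9 and 10 had one, namely Neb, Nebl, Ttn, Tpm1 and Myom2, against 77.1% of all genes. Adding up the share of all genes with a peak in each member's decile gave 11.9 members, beside the 15 observed. The corresponding sum of decile means was 33.8 peaks, beside the 37 observed. The members' territories added up to 4.20 Mb and held 8.81 peaks per Mb, against 9.43 over all territories. Without Nebl and Tpm1, which were set apart after their counts were seen, the other 37 members held 17 peaks, beside a sum of decile means of 25.6. Those means keep the peak-rich genes of each decile. Leaving out the members with the most peaks therefore lowers the first value by itself, and no conclusion is drawn from the pair.

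**Figure D1:**
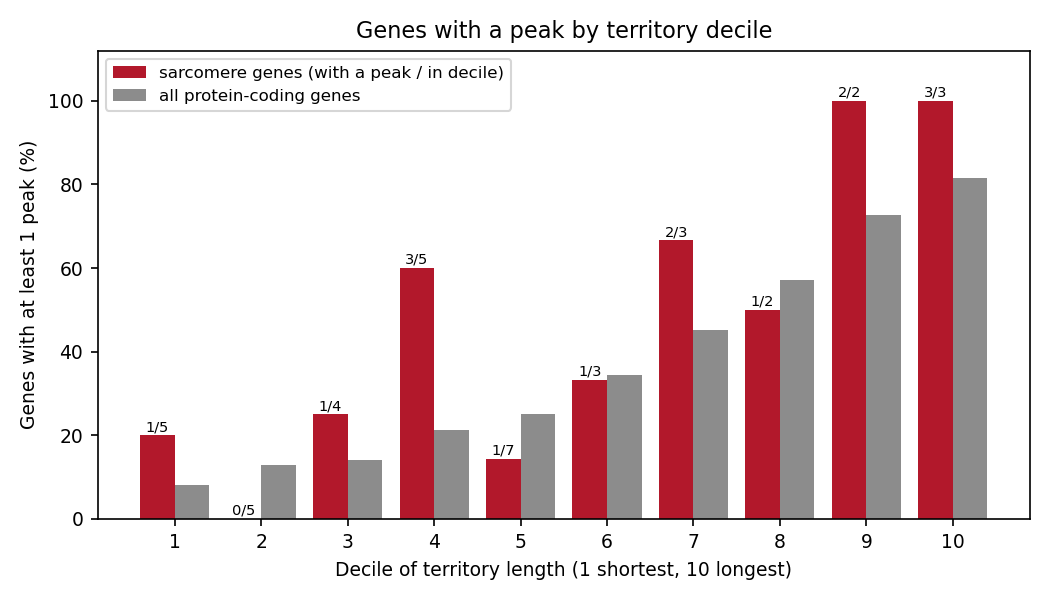
Share of genes with at least 1 Foxf2-FLAG peak (y axis, %) by decile of territory length (x axis), for the 39 sarcomere genes (red, with the number that had a peak over the number in the decile) and for all 21938 protein-coding genes (grey). All 5 members of deciles 9 and 10 had a peak, and 6 of the 26 in deciles 1 to 5 did.

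**Figure D2:**
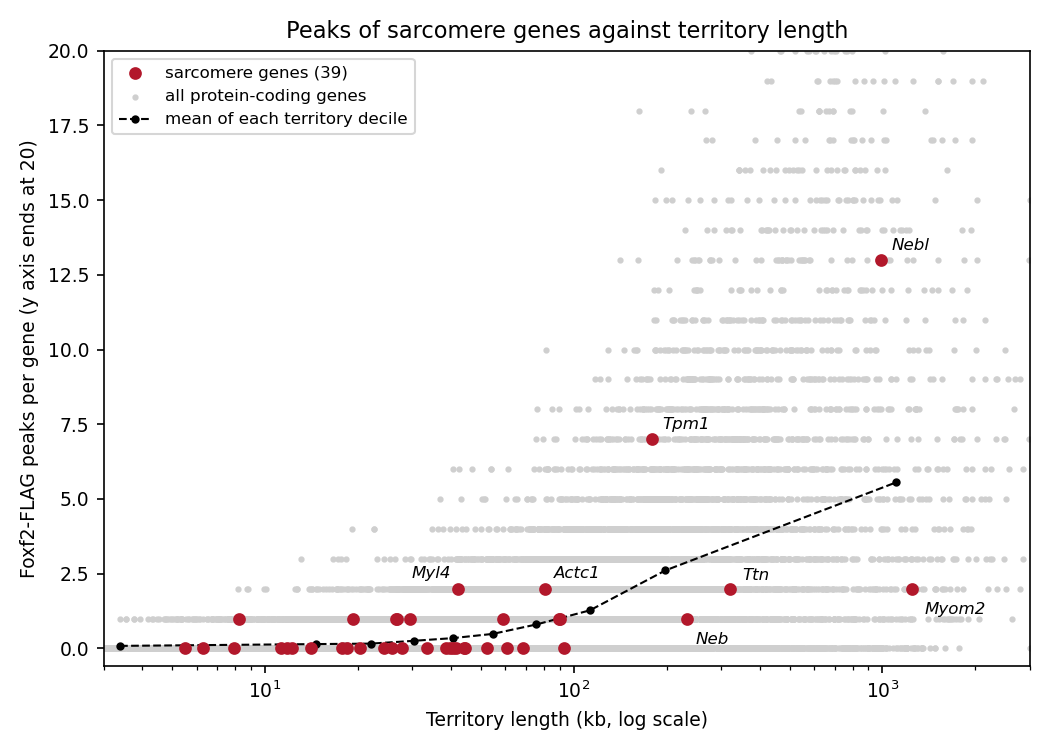
Number of peaks per gene (y axis, cut at 20) against territory length in kb (x axis, log scale) for the 39 sarcomere genes (red), all protein-coding genes (grey) and the mean of each territory decile (black, at the geometric centre of the decile's limits, the shortest taken from 1 kb). Nebl with 13 peaks and Tpm1 with 7 lay above the decile means, while Myom2, Ttn and Neb with 2, 2 and 1 lay below them.

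Tpm1, a tropomyosin gene whose isoforms are made in muscle and in many other cells, had 7 peaks in a territory of 178.9 kb, or 3.91 peaks per 100 kb. The mean in its decile was 2.61 peaks, and 9.80% of genes there had 7 or more. All 7 lay upstream of the gene, from 22.1 to 132.8 kb from its first TSS, and none lay inside it. In order of distance their scores were 35.1, 15.5, 44.6, 11.5, 14.8, 13.7 and 10.3. The 44.6 peak (chromosome 9, 67116034 to 67116246) ranked 1863 in the whole list, the highest place of any member peak. Its core, GTAAACA on the minus strand, lay 2.5 bp from the midpoint, and its window also held a CArG box, the sequence bound by serum response factor. The peaks 91.4 and 98.4 kb upstream lay in introns of the long noncoding RNA gene Gm19299, and the other 5 lay between genes. Neither of the remaining tropomyosin genes, Tpm2 (27.8 kb of territory) and Tpm3 (24.2 kb), had a peak, and 21.2% and 14.1% of genes in their deciles had one.

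Nebl encodes nebulette, a Z-disc protein of the heart, and also a LIM form made outside striated muscle. It had 13 peaks, the most in the set, in a territory of 989.9 kb, or 1.31 per 100 kb. The mean of its decile was 5.56 peaks, and 12.3% of genes there had 13 or more. That decile held territories from 278.5 to 4426 kb, with a median of 4 peaks per gene. Of its peaks, 9 lay in introns, 3 lay upstream of the gene and 1 lay far downstream. The 3 upstream peaks had scores of 11, 27.8 and 40.9 at 11.3, 57.1 and 130.1 kb from the first TSS, so the score was higher at greater distance. The intronic peaks scored from 10.4 to 24.4. The intronic peak nearest to a start lay 3.04 kb upstream of an internal TSS and scored 23.4 (chromosome 2, 17465726 to 17465938). The downstream peak scored 21 and lay 481.6 kb from the nearest Nebl TSS. By nearest start, 5 peaks went to the first TSS and 3 and 5 to the internal ones at 17462789 and 17391008. Neb, which encodes the skeletal thin filament ruler nebulin, had in contrast 1 peak in 233.6 kb. It scored 11.7 and lay in an intron, 54.3 kb downstream of the nearest TSS, and 72.7% of genes in its decile had at least as many.

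**Figure D3:**
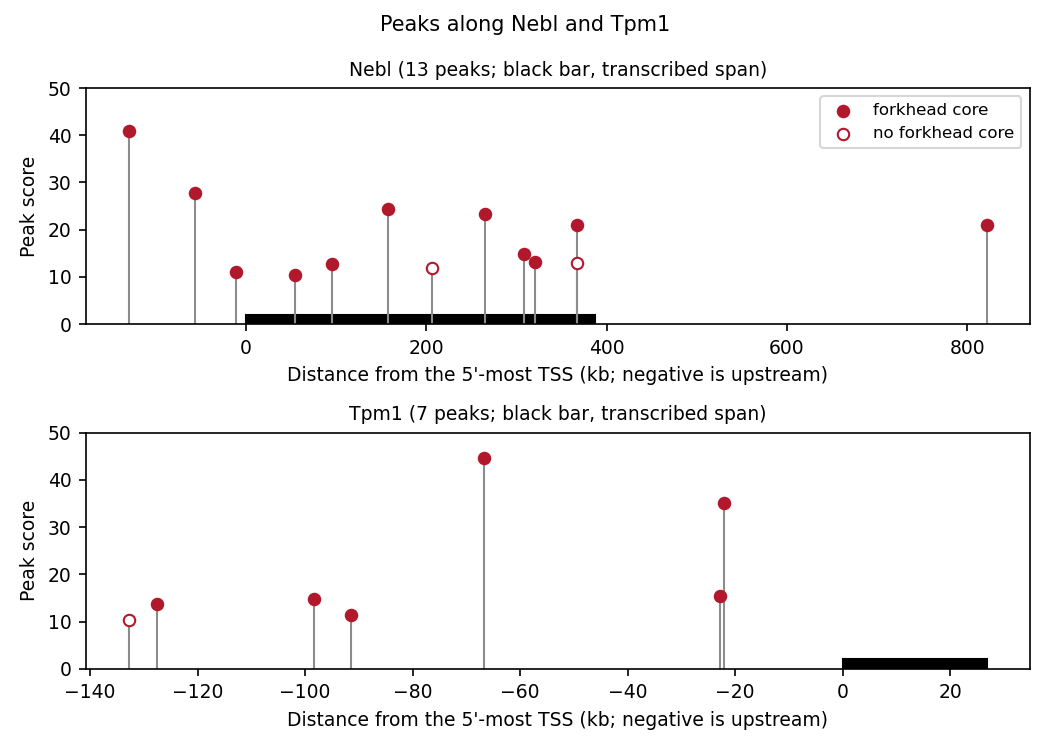
Scores of the peaks (y axis, the authors' value) along Nebl (upper panel, 13 peaks) and Tpm1 (lower panel, 7 peaks) against distance from the first TSS in kb (x axis, negative upstream); filled points had a forkhead core in the central 200 bp and open points had none, and black bars mark the transcribed span. All 7 Tpm1 peaks lay upstream, and 9 of the 13 Nebl peaks lay inside the gene.

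The sarcomeric actin genes held 2 peaks at 1 of 2 members, beside 0.704 members and 1.14 peaks from their deciles. Actc1, cardiac alpha-actin, which embryonic skeletal muscle also makes, had 2 peaks in 80.8 kb with scores of 10.9 and 11.6. The first lay 4.80 kb upstream, in introns of 2 noncoding genes, and the second lay 52.3 kb upstream at the transcript end of Aqr. Acta1, the main actin of adult skeletal muscle, had none in 44.5 kb, and the nearest peak, 30.1 kb from its TSS, counted with Nup133.

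Troponin genes, which encode the calcium switch of the thin filament, had 3 peaks at 3 of 8 members, all with scores under the median of the list. Their deciles gave 1.22 members and 1.47 peaks. Tnni1, the slow skeletal inhibitory subunit, had a peak 5.16 kb upstream, at rank 18827 in the list, with 2 forkhead cores. Tnni3, the cardiac inhibitory subunit, had the Dnaaf3 peak of 10.5 described above. Its territory of 8.22 kb was in the shortest decile. Tnnt3, the fast tropomyosin-binding subunit, had a peak of 15.9 at its transcript end, 14.7 kb downstream of the nearest TSS and without a core. Tnnt1, Tnnt2, Tnni2, Tnnc1 and Tnnc2 had none. Their territories ran from 5.52 kb at Tnnc1 to 52.5 kb at Tnnt2. Of the 8 troponin genes, 6 lie in pairs and so shared neighbourhoods: Tnnt1 and Tnni3 start 6.52 kb apart, Tnni1 and Tnnt2 37.0 kb and Tnni2 and Tnnt3 57.0 kb. For Tnnt1 and Tnnt2 the nearest peak was that of the partner gene.

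Myosin heavy chains, the motors of the thick filament, had 2 peaks at 2 of 7 members, beside 1.68 members and 2.23 peaks from their deciles. Myh3, the embryonic form, had 1 peak of score 12.4 in an intron 10.1 kb downstream of its TSS, with 1 core. Myh7, the slow skeletal and cardiac beta form, had 1 of score 11.4 in an intron 0.765 kb downstream of its TSS, also with 1 core (chromosome 14, 54993755 to 54993967). The fast forms Myh1, Myh2 and Myh4, the perinatal form Myh8 and the cardiac alpha form Myh6 had none. Myh3, Myh2, Myh1, Myh4 and Myh8 form a cluster of 230.3 kb on chromosome 11 (67078300 to 67308634), in which the Myh3 peak was the only one. The nearest peak to a TSS was 82.7 kb away for Myh2, 111.7 kb for Myh1, 149.7 kb for Myh4 and 137.3 kb for Myh8.

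Myosin light chains had 3 peaks at 2 of 6 members, beside 1.497 members and 2.44 peaks from their deciles. Myl4, made in embryonic muscle and the atria, had a peak of 22.1 in an intron 4.27 kb downstream of an internal TSS and 1 of 13.3 beyond its end. A further peak, of score 15.8, lay 0.374 kb from a Myl4 TSS and was counted with Cdc27, whose TSS was nearer. It was singled out after its values were seen. Myl3, the slow and ventricular essential chain, had the promoter peak of 11.4. Myl1, Myl2, Myl7 and Mylpf had none. Myl1, a light chain of fast muscle, had the longest territory of all members without a peak, 92.7 kb, and 57.2% of genes in its decile had one.

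Ttn had 2 peaks, beside a decile mean of 5.56, and the 5 genes of myosin-binding and M-band proteins held 4, beside a sum of 8.12. The decile of Ttn and Myom2 ran from 278.5 to 4426 kb, with a median of 4 peaks. Its mean thus served territories of very unlike length. The peaks of Ttn, the giant spring of the sarcomere, were both intronic, with scores of 10.1 and 16 in a territory of 320.5 kb, and 70.3% of genes in its decile had at least as many. The 10.1 peak lay 9.22 kb downstream of a TSS and stood at the lowest score in the list. Myom2, an M-band protein, had the longest territory of the set and 2 peaks, 0.161 per 100 kb, at 370.9 and 430.1 kb downstream of its TSS with scores of 27.6 and 14.4. Both were far outside the 75.9 kb gene. Myom1, its relative, had 1 intronic peak of 15.1. Mybpc1, slow myosin-binding protein C, had 1 of 24.6 at 26.6 kb upstream. That peak held 1 core and both E-boxes CAGCTG and CATCTG, as did the Tpm1 peak of 35.1. Mybpc2 and Mybpc3, the fast and cardiac forms, had no peak.

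Apart from Nebl, described above, the members at the Z-disc were Actn2, Actn3, Ldb3 and Tcap. These 4 and the calcium-binding calsequestrin gene Casq1 had no peak by the nearest-TSS rule. Adding up the decile shares of these 4, without Nebl, gave 0.963 genes with a peak. Actn2, sarcomeric alpha-actinin, held 2 peaks in its introns, of scores 12.4 and 11.3, that were nearer to the TSS of Mtr. Ldb3, which encodes the Z-disc protein ZASP, held 1 of 13.4 nearer to another gene. Another intronic peak of Myom1 (15.1) was nearer to Lpin2. Inside the bodies of members there were thus 21 peaks, of which 17 counted with the member. These 17 were 45.9% of the 37 member peaks (interval 29.5 to 63.1). Of all peaks, 37.4% lay inside the gene they were assigned to. The peak nearest to a TSS of Ldb3 scored 51.6, above every member peak, but lay 25.0 kb away and counted with Opn4. It too was singled out after its values were seen.

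The 24 members without a peak had short territories, with a median of 26.8 kb, beside 80.8 kb for the 15 with a peak. All genes were split in the same way, with medians of 31.4 kb without a peak and 109.8 kb with one. Of the 24 members without a peak, 20 had a territory under 50 kb. The nearest peak lay at a median of 45.8 kb from the TSSs of these 24, from 6.90 kb at Tnnc2 to 149.7 kb at Myh4. For 18 of them it belonged to a gene outside the set. The forkhead core occurred near all of them: the 10 kb to each side of the first TSS held 5 to 34 matches, 427 in all. The median was 17 matches at these members, 21 at members with a peak and 22 over all genes. It was 22 for all genes without a peak and 23 for all genes with one.

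**Figure D4:**
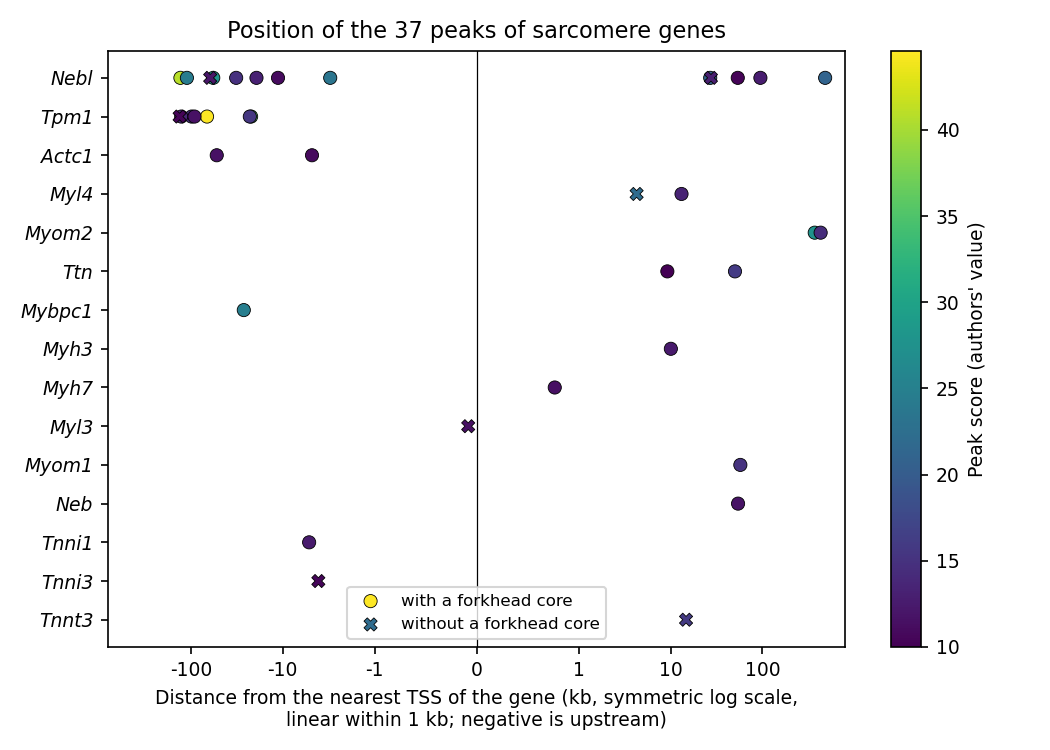
Position of the 37 peaks by gene, as distance in kb from the nearest TSS of the gene (x axis, symmetric log scale, negative upstream), coloured by the authors' peak score; circles had a forkhead core in the central 200 bp and crosses had none. Peaks at Myl3 and Myh7 lay within 1 kb of a TSS, and those of Myom2 were over 370 kb away.

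Member peaks had a lower median score than the list as a whole. Their median score was 13.7, from 10.1 to 44.6, against a median of 16.2 and a highest score of 243.9 over all peaks. A score at or above the list's median was reached by 11 of 37 peaks, 29.7% (interval 15.9 to 47.0), against 50.1% of all peaks. These 11 belonged to Nebl, Tpm1, Myl4, Myom2 and Mybpc1. Among the 17 peaks of members other than Nebl and Tpm1, 3 reached it. Peaks of a member had a median focus ratio of 0.804, against 0.783 over all peaks, and a median GC content of 43%, against 43.5%.

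**Figure D5:**
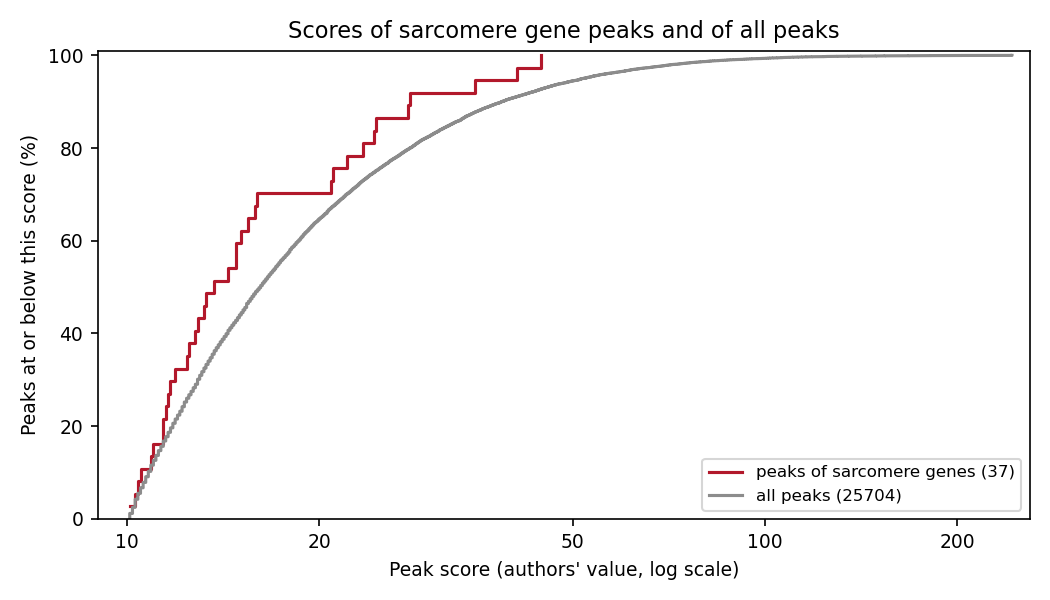
Percent of peaks at or below each score (y axis) against the authors' peak score (x axis, log scale), for the 37 peaks of sarcomere genes (red) and all 25704 peaks (grey). The red line lay to the left of the grey one over most of the range and ended at 44.6, while the grey one ran to 243.9.

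Most member peaks held the forkhead core. Of the 37, 30 held it in their central 200 bp, 81.1% (interval 64.8 to 92.0), against 72.5% of all peaks. Of the 37 windows of the same width lying 2000 bp below and above these peaks, 7 and 4 held it, 18.9% and 10.8%. Over all peaks 18.4% of such windows on each side held it, so the lower share in the flanks was not particular to the members. The strict form GTAAACA was in 11, 29.7%, against 27.4% of all peaks, and in none of the flanking windows. For all peaks it was in 3.15% of the windows below and 2.96% of those above. The 30 peaks held 42 matches, of which 21 read ATAAACA, 11 GTAAACA, 6 ATAAATA and 4 GTAAATA. In 21 of the 30 the nearest core lay within 20 bp of the midpoint. Neither the words nor this distance are set beside all peaks here, so they are not shown to be particular to the members. The core was in 17 of the 20 peaks of Nebl and Tpm1 and in 13 of the 17 of the other members. The 7 peaks without it were at Myl3, Tnni3, Tnnt3, Myl4, Tpm1 and, with 2, Nebl.

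Sequences known from muscle promoters were also counted on both strands. The E-box CAGCTG was in 7 peaks, 18.9% (interval 7.96 to 35.2), against 18.7% of all peaks. Of the flanking windows below and above, 3 and 6 held it, 8.11% and 16.2%, against 8.43% and 8.37% for all peaks. The E-box CATCTG was in 4, 10.8% (interval 3.03 to 25.4), against 28.0% of all peaks. In the flanking windows it was in 6 and 4, 16.2% and 10.8%, against 14.9% on each side for all peaks. The TEAD sequence, GGAATG or GGAATT, was in 11, 29.7%, against 25.2%. Its flanking counts were 7 and 5, 18.9% and 13.5%, against 20.1% on each side for all peaks. The MEF2 sequence was in none, where a count of 0 of 37 allows up to 9.49% by the exact interval, against 0.498% of all peaks. The CArG box was in 1, the Tpm1 peak, against 0.825%. None of these letters shows that the named factor was bound.

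By position 19 of the 37 peaks lay in introns, 51.4% (interval 34.4 to 68.1), against 45.4% of all peaks. Another 14 were intergenic, 37.8% against 40.7%, 2 were at promoters, 5.41% against 8.52%, and 2 at transcript ends, 5.41% against 2.54%. The median distance to the nearest TSS was 32.2 kb, against 51.3 kb, and 8 peaks lay within 10 kb, 21.6% against 20.9%.

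Other striated muscle genes, 53 that are not members, were listed from knowledge of muscle. They make proteins of the Z-disc, the reticulum, the costamere, sarcomere assembly, energy supply and the nerve-muscle junction, with further myosins and an M-band gene among them. At least 1 peak was found at 27 of them, 50.9% (interval 36.8 to 64.9), beside 36.6% from their territory deciles and 37.3% of all genes. They held 43 peaks, beside a sum of decile means of 45.0, with a median score of 13.5. Pdlim3, a Z-disc LIM protein, had 5, Chrna1, the muscle acetylcholine receptor subunit, had 4, and Lmod3, a thin filament nucleator, and Pdlim5 had 3 each. The highest score in the list was 41.7, at the single peak of Nexn, which encodes an actin-binding protein, and among the 4 genes with the most peaks it was 28.0, at Chrna1. Within 10 kb of a TSS, 13 of the 53 had a peak, 24.5% against 19.4% of all genes. No test was made of these lists.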

How the data were processed

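Anti-FLAG ChIP-seq of E12.5 tongues gave 1 table of 25707 peaks, analysed here without reads. Per the labels and the submitters' processing notes, the authors aligned reads to mm10 with Bowtie2 (2.4.1), used SAMtools (1.7.1) and called peaks with HOMER against the input. HOMER's version and settings, and any pooling of the ChIP libraries: not given in the sources used here. Each peak's score is the authors' deposited value, on a scale not stated. The deposited focus ratio was read as a fraction, since all intervals have 1 width (212 bp). Deposited start and end were used as given.

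Another 3 peaks, on an unplaced contig, were dropped. Peak midpoints were assigned to the nearest TSS of protein-coding genes (GENCODE M21 basic, GRCm38, the mm10 assembly). Territories run to the midpoints between neighbouring TSSs and include assembly gaps. Genes were ranked into 10 territory bins. Peak classes were taken in the order promoter, transcript end (100 bp upstream to 1000 bp downstream), exon, intron, intergenic. Sequences are from RefSeq GRCm38. No test was run, since no value belongs to a single library. Members and lists were chosen with earlier results of these data known. Every member is named. The peaks described singly are the highest-scored of each member and those within 10 kb of a TSS, others being given in addition. Up to 4 genes with the most peaks were to be named per further list. Myl12b, for a tie in number of peaks, and Nexn, for its score, were named in addition. One list symbol with more than 1 gene ID was taken at its longer territory. Assignment, territories, motif search and the logistic fit were tested on simulated data. Alternatives covered peak score, distance, TSS choice, gene types, gene body, windows, motif form and bins. Tools were Python 3.11.15 with pandas 2.3.3, numpy 2.4.6, statsmodels 0.14.6, scipy 1.17.1, pysam 0.24.0 and matplotlib 3.10.9.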

Additional observations from a re-analysis of the deposited data

How the results depend on the processing

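The number of members with a peak, 15, was 12 with peaks within 50 kb, 12 with the first TSS of each gene, 10 with TSSs of all gene types and 10 with peaks inside the gene body. A pair of settings, built to drop peaks, moved it further: 5 with scores at or above the median and 8 within 10 kb. Within 10 kb, 19.4% of all genes had a peak. For the other settings no share of all genes is given, so these changes describe no trait of the members. The gene body count gained Actn2 and Ldb3 and shared 8 members with the nearest-TSS count. The 37 peaks became 34 with the first TSS and 32 when peaks within 10 kb of each other were counted once. They were 11 with scores at or above the median, 19 within 50 kb, 8 within 10 kb, 19 with TSSs of all gene types and 21 inside gene bodies. Of all peaks, 50.1% had such a score, 49.4% lay within 50 kb and 20.9% within 10 kb. For the member peaks these shares were 29.7%, 51.4% and 21.6%. The 11.9 members expected from territory were 12.3 by a logistic fit and 11.9 with 20 bins. The share with a forkhead core, 81.1%, was 78.4% in a 100 bp window and, by the narrower word, 29.7% with GTAAACA. Without Nebl, an alternative chosen after seeing the data, it was 79.2%. The intronic share was 51.4% with the wider promoter too. The median score of 13.7 was 13.5 without Nebl and moved within its 95% interval (12.4 to 15.9) without Nebl and Tpm1, a setting added after seeing the data. No paired analysis was possible because no column of the table belongs to a single library. Depth is unknown, so a member without a peak is not shown to be unbound.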

Other observations

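Contractile genes that act outside the sarcomere gave other counts. A list of 19 genes of the cytoplasmic and smooth muscle apparatus, written from knowledge of the protein families with earlier results of these data known, had peaks at 13, 68.4% (exact 95% interval 43.4 to 87.4). The share from their territory deciles was 33.4%. The list held 39 peaks, beside a sum of decile means of 12.8. Their median score was 19.7, against 16.2 over all peaks. The forkhead core was in 30 of the 39, 76.9%, near the 72.5% of all peaks. Cald1, which encodes the actin-binding protein caldesmon, had 15 peaks in 207.7 kb, up to a score of 61.0. Without it the list held 24 peaks, beside 10.2. Myh10, a nonmuscle myosin, had 4 peaks up to 54.0. Actn1, a nonmuscle alpha-actinin, and Myh11, the smooth muscle myosin, had 3 each, up to 62.3 and 33.8. Myl12b, a nonmuscle myosin light chain, also had 3. Within 10 kb of a TSS, 9 of the 19 genes had a peak, 47.4%, against 19.4% of all genes. The difference from the sarcomere genes was not tested.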
